A study of Caenorhabditis elegans with 2 samples.

Results

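Divergent promoters are stretches of DNA from which 2 neighbouring genes are read in opposite directions, and 328 peaks of the C. elegans transcription factor LET-607 were found in such stretches. They were taken from the 2349 nuclear peaks of the authors' list of 2372 reproducible peaks, of which they made up 13.96% (exact 95% interval 12.6 to 15.4). A peak was included when at least 2 protein-coding genes, with at least 1 on each strand, had their annotated 5′ end in reach of its summit, the position of highest enrichment. In reach means that the summit was at most 1000 bp upstream or 200 bp downstream of that end. Summits within 100 bp of a tRNA gene were left out. Of the other nuclear peaks, 819 had a single protein-coding gene in reach, 25 had several genes of 1 strand, 212 lay at tRNA genes and 965 had no protein-coding 5′ end in reach.

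The peaks came from chromatin immunoprecipitation and sequencing (ChIP-seq) of whole hermaphrodites of strain YL529 at the young adult stage, 67 h after starved first-stage larvae were released from synchronization. The worms carried LET-607 with GFP and FLAG tags at its C-terminus, the chromatin was sheared by sonication, and the complexes were collected with an anti-GFP antibody. The samples are 2 biological replicates of 1 transgenic line under 1 condition, so the design holds no contrast between conditions. The relaxed list of replicate 1 held 26463 peaks, that of replicate 2 held 22592 and that of the pooled reads held 26789, and the reproducible list was thresholded by the authors on the irreproducible discovery rate (IDR). The sequencing depth behind each value is unknown, since the files used hold no read counts. The signal of a peak is the authors' own value with no stated scale, and it was compared only within a list. Peaks are not replicates of a condition, so shares of peaks carry exact Clopper-Pearson 95% intervals that cover counting error only, and no difference between classes of peaks was tested.

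LET-607 belongs to the CREB3 family of bZIP proteins, which are made as membrane proteins of the endoplasmic reticulum (ER). In mammals, their N-terminal part carries the DNA-binding domain and is released by cleavage to enter the nucleus. The family is known for the control of secretory pathway genes, and its mammalian members bind sequences built around the core ACGT. The worm genome is compact, so head-to-head genes often share a short intergenic stretch in which a bound factor lies upstream of both. Many worm messages are trans-spliced to a leader RNA, so an annotated 5′ end need not be the site where transcription starts.

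Sequences around 10 of these summits are shown because they belong to strong members (the first 6) or hold a complete CREB-type word (the last 4). Each runs from 50 bases before to 50 bases after the summit and was read from the RefSeq sequence of WBcel235 (ce11) on the + strand and written 5′ to 3′. Capitals mark TGACGT, the core of a cAMP response element, or TGCAGT, each on either strand as ACGTCA or ACTGCA.
trap-2/ile-2: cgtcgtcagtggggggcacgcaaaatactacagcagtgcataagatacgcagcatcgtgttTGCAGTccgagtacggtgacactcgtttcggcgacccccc
sec-61.B/trap-3: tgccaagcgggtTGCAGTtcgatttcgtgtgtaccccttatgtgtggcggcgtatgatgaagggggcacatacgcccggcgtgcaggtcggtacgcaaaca
imp-2/enpl-1: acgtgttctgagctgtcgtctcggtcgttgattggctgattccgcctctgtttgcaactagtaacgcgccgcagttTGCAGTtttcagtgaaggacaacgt
pdi-1/C14B1.2: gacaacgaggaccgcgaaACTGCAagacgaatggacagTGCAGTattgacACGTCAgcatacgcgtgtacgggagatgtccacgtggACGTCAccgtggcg
iff-2/F54C9.14: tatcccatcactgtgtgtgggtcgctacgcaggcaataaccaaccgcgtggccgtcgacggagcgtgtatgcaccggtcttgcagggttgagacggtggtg
srh-70/ceh-99: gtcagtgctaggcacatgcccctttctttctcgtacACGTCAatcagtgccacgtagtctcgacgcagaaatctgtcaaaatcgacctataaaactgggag
Y54G2A.28/vrp-1: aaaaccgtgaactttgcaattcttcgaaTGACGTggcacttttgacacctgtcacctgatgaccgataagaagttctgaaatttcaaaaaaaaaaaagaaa
rab-1/C39F7.5: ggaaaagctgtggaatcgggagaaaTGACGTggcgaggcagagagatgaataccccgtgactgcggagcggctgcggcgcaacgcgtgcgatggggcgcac
plp-2/rbg-1: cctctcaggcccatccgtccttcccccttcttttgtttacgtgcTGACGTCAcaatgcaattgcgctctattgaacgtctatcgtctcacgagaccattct
lst-6/lst-5: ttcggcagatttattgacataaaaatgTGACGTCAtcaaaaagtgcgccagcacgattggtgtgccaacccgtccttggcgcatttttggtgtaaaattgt
The windows lie at chrX:768190-768290, chrIV:2389087-2389187, chrIV:11119170-11119270, chrIII:3701747-3701847 and chrII:8561394-8561494 for the first 5. The others lie at chrII:12518966-12519066, chrIV:3012480-3012580, chrV:1264463-1264563, chrX:14983422-14983522 and chrII:7022705-7022805. The 3 strongest members, at trap-2/ile-2, sec-61.B/trap-3 and imp-2/enpl-1, each hold TGCAGT and no TGACGT. The window at pdi-1/C14B1.2 holds both words, and that at iff-2/F54C9.14 holds neither. The first 6 leave out pdi-3/ubql-1, which is stronger than srh-70/ceh-99 and also holds neither word. At Y54G2A.28/vrp-1 and rab-1/C39F7.5 the core is followed by GG, giving TGACGTGG, and plp-2/rbg-1 and lst-6/lst-5 hold the palindrome TGACGTCA. Base composition varied widely among these windows, from 35.6% G + C at Y54G2A.28/vrp-1 to 63.4% at rab-1/C39F7.5.

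The strongest divergent promoters belonged to genes of protein entry into the ER. The member of highest signal lay between trap-2 (WBGene00020216), a subunit of the translocon-associated protein complex, and ile-2 (WBGene00002071), a lectin-type cargo receptor of ER-to-Golgi transport. It ranked 1 among all nuclear peaks with a signal of 9329, and 1 in each replicate with signals of 4969 and 4392. Its summit lay 171 bp upstream of trap-2 and 356 bp upstream of ile-2. The next member joined sec-61.B (WBGene00021427), the beta subunit of the Sec61 translocation channel, to trap-3 (WBGene00021420), another translocon-associated subunit. It ranked 4 with a signal of 7275, and 4 in each replicate with signals of 3829 and 3482. These were the 2 members with secretory genes on both strands. In both, the summit lay between the 5′ ends, and the 2 replicates gave the peak the same rank.

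Genes of ER protein folding followed. The summit between imp-2, an intramembrane protease of the signal peptide peptidase family, and enpl-1, the ER chaperone endoplasmin, had a signal of 4456 and ranked 8 in the reproducible list and in each replicate (2370 and 2105). It lay 78 bp upstream of enpl-1 and 333 bp upstream of imp-2. The protein disulfide isomerase gene pdi-1 and its partner C14B1.2 shared a member of rank 10 and signal 2838, which ranked 11 in each replicate with signals of 1469 and 1370. A second isomerase gene, pdi-3, stood opposite ubql-1, a ubiquilin gene, at a member of rank 14 and signal 2627 that ranked 13 in replicate 1 and 14 in replicate 2. That summit was far from both 5′ ends, 623 bp from pdi-3 and 552 bp from ubql-1. At ccf-1/trap-4, where a deadenylase subunit gene faces a further translocon-associated gene, the member ranked 19 with a signal of 1680 and ranked 20 and 19 in the replicates.

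Of the 9 members among the 20 strongest nuclear peaks, 3 had no gene of the secretory lists in reach. The first stood at iff-2, an eIF5A translation factor gene, and F54C9.14, with rank 12 and a signal of 2703 (ranks 14 and 10 in the replicates). Another stood at srh-70, a chemoreceptor-family gene, and the homeobox gene ceh-99, with rank 15 and a signal of 2164 (ranks 16 and 15). The last stood at F10G7.9 and tsn-1, a Tudor staphylococcal nuclease gene, with rank 20 and a signal of 1630 (ranks 25 and 20). At srh-70/ceh-99 the summit was 157 bp from srh-70 and 965 bp from ceh-99, close to the outer limit of the window. The remaining 11 of the 20 strongest members had signals from 719.2 at Y59E9AL.36/nbet-1 to 1393 at F55A11.1/syx-5. They joined SNARE and coat genes of ER-to-Golgi traffic (syx-5, nbet-1 and sec-23, the last opposite dcs-1; nbet-1 is on none of the lists and is not counted with them), the Sec63-type J-protein gene dnj-29 (opposite ndua-2, with fld-1 also in reach) and the ribosomal protein genes rpl-1, rpl-20 and rpl-15 to their neighbours. The neighbours of the ribosomal protein genes were Y71F9AL.9, Y17G9B.5 and K11H12.8. The other 4 were R107.5/cls-2 (a CLASP microtubule protein gene), epc-1/Y111B2A.12 (an Enhancer of Polycomb gene), K01G5.10/tasp-1 (a taspase gene) and tbb-1/rib-2 (a beta-tubulin gene opposite a heparan sulfate synthesis gene).

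Members were spread unevenly over the ranked list. Of the strongest 20, 100, 200, 500 and 1000 nuclear peaks, 9, 29, 50, 98 and 167 were members, so their share went from 45% (23.1 to 68.5) through 29% and 25% to 19.6% and 16.7%, against 13.96% of the whole list. When the nuclear peaks were divided into 4 equal groups by signal, the strongest group took 113 members (34.5%, 29.3 to 39.9), 219 of the single-gene promoter peaks (26.7%, 23.7 to 29.9) and 235 of the peaks with no gene in reach (24.4%, 21.7 to 27.2). The other 3 groups took 75, 72 and 68 members. The median signal was 136.5 for members, with a range of 78.48 to 9329, and 123.5 for single-gene promoter peaks. The median nuclear rank was 967.5 for members, 1143 for single-gene promoter peaks and 1189 for peaks with no gene in reach. Among all 26766 nuclear peaks of the pooled relaxed list, 1095 (4.09%) met the same rule.

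The members of high signal took nearly the same place in both replicates, and those of low signal did so less often. All 328 overlapped a relaxed peak in each replicate, in lists about as long as the pooled one, and selection on reproducibility largely fixed that count. Within the strongest 2372 peaks of a replicate lay 292 members (89.0%, 85.1 to 92.2) for replicate 1 and 280 (85.4%, 81.1 to 89.0) for replicate 2. Both held in 244 members (74.4%, 69.3 to 79.0), against 73.0% of single-gene promoter peaks and 71.95% of all nuclear peaks. The ranks of the 2 replicates lay within 2-fold of each other for each of the 20 strongest members (largest ratio 1.4), for 97.5% of the next 80 and for 75.4% of the other 228. The ratio was largest at nmat-2/rab-5, an NAD synthesis gene opposite a Rab GTPase gene of early endosomes, which ranked 1167 in replicate 1 and 17738 in replicate 2. It was next largest at dagl-2/ppm-1.G, which ranked 1435 and 10163. At mlcd-1/idhg-1 the order was the other way, with ranks of 5748 and 1106. Where several peaks of a replicate overlapped a member, its rank and summit come from the strongest, so 10 members in replicate 1 and 9 in replicate 2 carry the value of a stronger member beside them. Taking the overlapping peak with the nearest summit instead, a setting chosen after seeing the data, left 242 members (73.8%) within the strongest 2372 peaks of both replicates. Across the 328 members, Spearman's rho of the signals in the 2 replicates was 0.78, a description over peaks that were selected on this reproducibility.

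**Figure D1:**
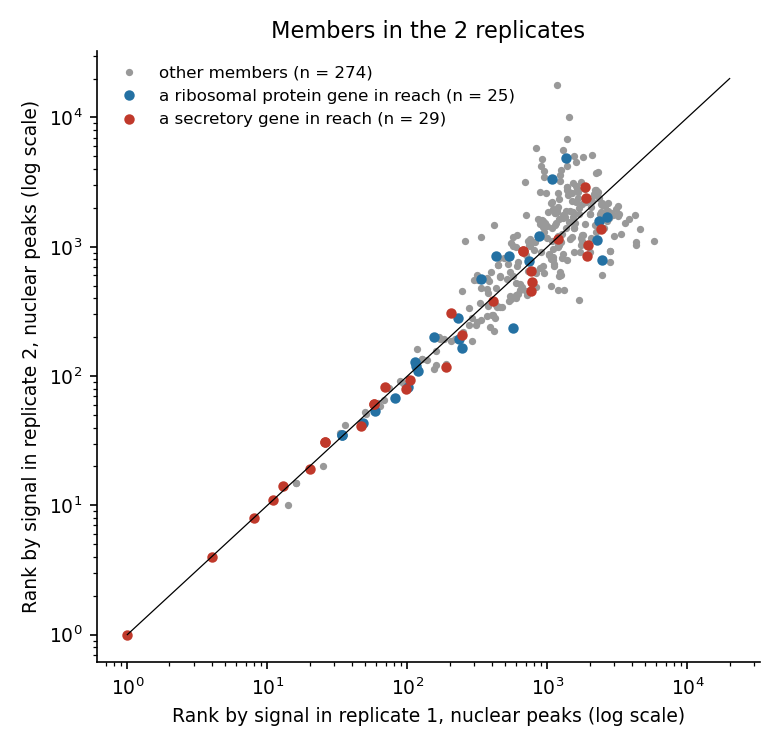
Rank of each of the 328 members by signal among the nuclear peaks of replicate 1 (horizontal axis) and replicate 2 (vertical axis), both on log scales, with the line of equal rank. Red points have a secretory gene in reach (29 members), blue points a ribosomal protein gene and no secretory gene, grey points neither; the strongest members lie on the line and the points spread beyond rank 1000, up to rank 17738 in replicate 2.

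The position of the summit was reproducible to within a short stretch of sequence. The summits called in the 2 replicates lay a median of 22 bp apart (interquartile range 9.75 to 41, largest 265). With replicate 1's own summits all 328 peaks met the rule, and with those of replicate 2 it was met by 326. Which of the 2 genes was nearer was the same in both replicates for 288 members (87.8%).

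Most summits lay inside the gap between the 5′ ends, a position that the rule favours. In 296 members (90.2%, 86.5 to 93.2) the summit fell between the 2 ends, with a gene running away from it on either side. The rule reaches 1000 bp upstream of an end but only 200 bp downstream, which raises this share by construction. The share that the rule alone would give was not computed, here or for summits near the middle of the gap. The distance between the ends had a median of 510.5 bp (interquartile range 341.8 to 771) and ran from -4 bp, where the 2 gene models overlap, to 1696 bp. The rule limits this distance from above, and over all 2560 neighbouring divergent pairs of the genome with 5′ ends under 2000 bp apart the median was 677 bp. The nearer 5′ end was a median of 148 bp from the summit and the farther 353.5 bp, while single-gene promoter peaks had a median of 235 bp. The nearer end is by definition the smaller of 2 distances, and single-gene promoter peaks offer no such choice. These medians therefore cannot show whether members lie closer to 5′ ends than single-gene promoter peaks do. Of the 296 summits inside the gap, 34.1% lay within 50 bp of its middle and 171 summits within 100 bp, and the median distance from the middle was 78.75 bp. The nearer gene was on the plus strand in 189 members and on the minus strand in 139. In 291 members the summit lay in no protein-coding gene model. In 26 it lay in a noncoding gene model.

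**Figure D2:**
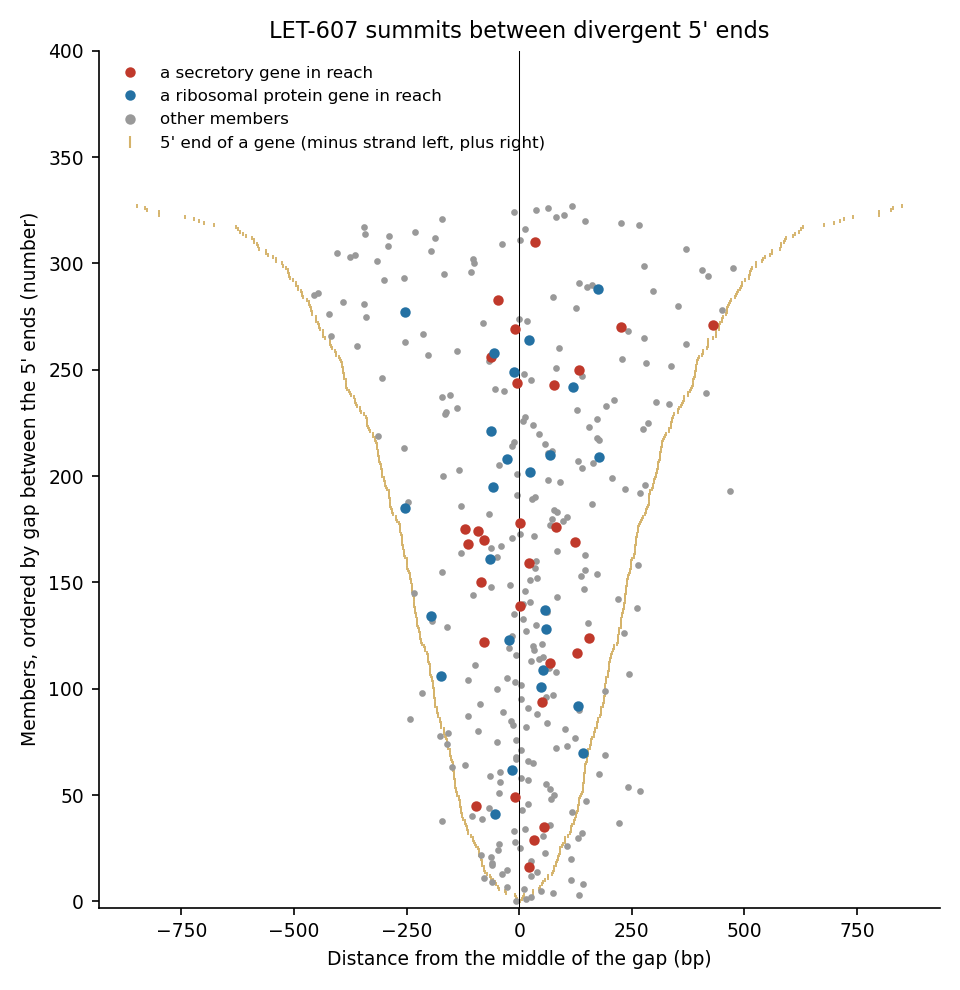
Each row is a member, ordered by the gap between its nearest 5′ ends; the horizontal axis is the distance in bp from the middle of the gap, with the minus-strand 5′ end to the left and the plus-strand 5′ end to the right (ochre ticks). Dots are the LET-607 summits, red with a secretory gene in reach, blue with a ribosomal protein gene and grey otherwise; 296 of the 328 dots lie between their ticks.

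Of these 328 peaks, 302 had 2 genes in reach and 26 had 3. In all, 658 distinct genes were in reach of a member, 3.29% of the 19973 nuclear protein-coding genes. They made up 42.8% of the 1538 genes with any reproducible peak in the window, which were 7.70% of all genes. Both genes of a pair are counted here, and the peak does not tell which of them, if either, responds to LET-607. The members fell on 317 distinct nearest pairs, and 11 of these pairs carried 2 summits each. At F55A11.1/syx-5 the stronger summit (signal 1393) lay 146 bp from F55A11.1 and 373 bp from syx-5, and the weaker (84.6) lay 383 bp and 136 bp from them. At rpl-1/Y71F9AL.9 the signals were 1128 and 254.2, and at dnj-29/ndua-2 they were 741.8 and 351.5.

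Sequence in reach of genes on both strands was densely occupied. It made up 2.09% of the nuclear genome and held 15.4% of the summits outside tRNA genes, or 156.7 summits per Mb, against 42.8 per Mb in reach of a single gene, 91.4 per Mb in reach of several genes of 1 strand and 12.25 per Mb elsewhere. Counted by gene, 796 of the 5656 genes whose window overlapped that of an opposite-strand gene had a reproducible peak (14.1%, 13.2 to 15.0). Of the 14317 genes without such an overlap, 742 had one (5.18%, 4.83 to 5.56). A summit in a shared window counts for both genes, which raises the first share by construction.

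Most divergent promoters of the genome carried no reproducible peak. Of the 2560 neighbouring divergent pairs, 320 (12.5%) had a summit in reach of both genes. The counts over pairs include summits within 100 bp of a tRNA gene, which the members leave out. By the gap between the 5′ ends, the share was 10.5% (7.54 to 14.02) below 250 bp, 22.4% (18.99 to 26.2) from 250 to 499 bp, 14.6% (12.3 to 17.2) from 500 to under 1000 bp and 4.66% (3.32 to 6.34) from 1000 bp up. Pairs differ in how much sequence is in reach of both genes. Per Mb of that sequence the same 4 classes held 185.2, 293.9, 147.7 and 87.6 summits, so pairs of 250 to 499 bp stood highest on this scale too. By chromosome, the share of pairs was highest on III, at 21.3% (17.3 to 25.7), and lay between 9.05% (V) and 14.02% (I) on the others. On X, the 14 members were 2.61% of its 537 nuclear peaks, against 14.2% to 20.7% on the autosomes. X also had fewer genes whose window overlapped an opposite-strand window, 13.6% against 28.8% to 33.3%, and its share of pairs with a peak was 9.55% (5.66 to 14.8).

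**Figure D3:**
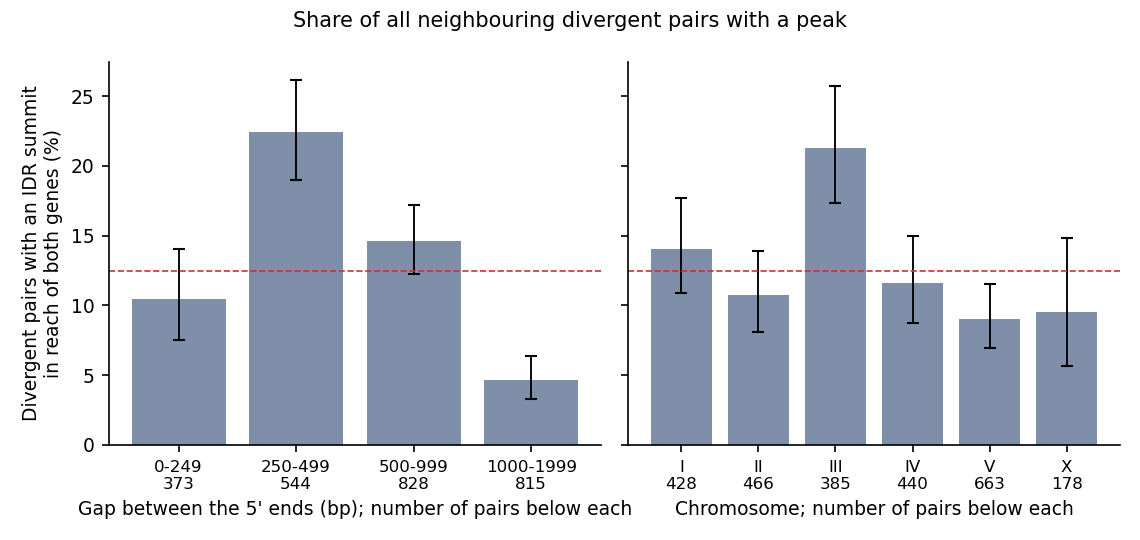
Percentage of the 2560 neighbouring divergent pairs with a reproducible LET-607 summit in reach of both genes, by the gap between the 5′ ends in bp (left) and by chromosome (right), with the number of pairs under each bar, exact 95% intervals as error bars and the genome-wide 12.5% as a dashed line. The bars for 250 to 499 bp (22.4%) and for chromosome III (21.3%) stand above the line with their whole intervals.

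Of 111 genes on 4 secretory lists, 28 lay at members (all protein-coding genes 3.29%), and they were distributed over 29 members. The list of signal recognition and ER translocation had 8 of its 20 genes at members, among them trap-2, sec-61.B, trap-3 and trap-4, the J-protein gene dnj-29 and the signal peptidase subunit gene spcs-2 (signal 118.6). Its other bound genes, 2 of 10, lay at other peaks. ER folding and the unfolded protein response had 5 of 26 genes at members. These were enpl-1, pdi-1, pdi-3, the ER J-protein gene dnj-20 (193.2) and the derlin gene cup-2 (151.4). In all, 17 genes of that list were bound, so 12 of them lay at peaks of other classes. ER-to-Golgi transport had 9 of 34 genes at members and 24 bound in all. Beyond ile-2, syx-5 and sec-23 they included tfg-1 (605.6), the coatomer gene copa-1 (496.8) and rab-1 (299.3), the GTPase gene of ER-to-Golgi vesicles. N-glycosylation had 6 of 31 at members, led by the oligosaccharyltransferase gene dad-1 (539.4), with dpm-3 (295.9), ribo-1 (176) and algn-14 (110.4) next.

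Among the listed genes outside the secretory pathway, those of protein synthesis were the most numerous at members, but the lists differ in size. By share, ribosomal protein genes (34.6%) and chaperone genes (31.4%) stood highest among these lists, against 3.29% of all protein-coding genes. Of the 81 cytosolic ribosomal protein genes, 28 (34.6%) lay at 26 members and 45 were bound in all, with rpl-1 (1128), rpl-20 (910.6), rpl-15 (788.2) and rps-19 (614.1) strongest. Translation factors had 8 of 38 at members, led by iff-2, the elongation factor genes eef-2 (692.1) and eef-1G (402.3), and eef-1A.1 (234.1). Cytosolic and mitochondrial chaperones had 11 of 35, led by the chaperonin gene cct-8 (410.6), hsp-110 (347.3), hsp-60 (335.3) and dnj-19 (248.9), and these were 11 of the 13 bound. The proteasome had 8 of 33 at members and 10 bound, with the regulatory particle genes rpn-3 (347.3), rpn-1 (176) and rpn-2 (117.6) and the core gene pbs-1 (121) strongest. The mitochondrial respiratory chain had 5 of 41, led by atp-3 (325.6), atp-1 (187.7), mev-1 (178.4) and ucr-2.1 (144.7). Aminoacyl-tRNA synthetases had 4 of 32 (ears-2, kars-1, hars-1 and mars-1), with signals of 97.33 to 188.5.

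In 2 lists the share of genes at members was close to the 3.29% of all genes, while more of their genes lay at other peaks. The vacuolar ATPase and lysosome list had vha-1 alone (signal 252.2) of 31 genes at a member (3.23%) and 7 bound in all (22.6%). The bZIP factors had zip-4 alone (86.17) of 28 (3.57%) and 8 bound in all (28.6%). Of 160 cuticle collagen genes, col-38 (217.7) and col-71 (124.9) lay at members, and the first shared its summit with the ribosomal protein gene rpl-5. Histone genes are arranged largely as divergent pairs, and 66 of 72 had a window overlapping one on the other strand. None of the 72 lay at a member and 2 were bound. None of 140 neuropeptide and insulin genes lay at a member, and 17 of those had an opposite-strand window. By contrast, 53 of 81 ribosomal protein genes, 24 of 33 proteasome genes and 22 of 35 chaperone genes had an opposite-strand window, so the number of listed genes that could lie at a member differed greatly between lists.

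**Figure D4:**
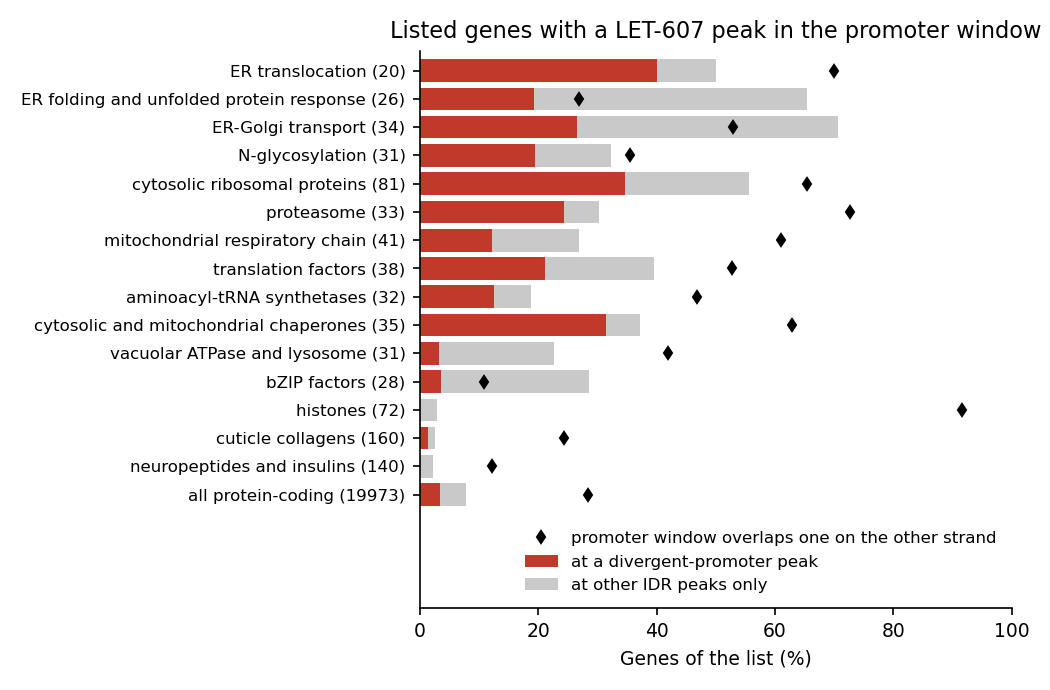
Percentage of the genes of each list with a LET-607 summit in the promoter window, at a divergent-promoter peak (red) or only at other reproducible peaks (grey), with the number of genes in brackets; black diamonds give the percentage whose window overlaps that of a gene on the other strand. ER translocation (40% at members) and ribosomal proteins (34.6%) have the longest red bars, and histones have none although 91.7% of them have an opposite-strand window.

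Listed genes stood on both strands at 9 members. Besides the 2 secretory pairs these were rps-10/rpl-24.1 (signal 457.6), hsp-110/rpn-3 (347.3), rps-23/dpm-3 (295.9), col-38/rpl-5 (217.7), rpn-1/ribo-1 (176), rps-14/rpl-36 (114.1) and rpl-39/rps-30 (92.53). In all, 91 members had at least 1 listed gene in reach. At the 27 members with 1 secretory gene in the nearest pair, the secretory gene was the nearer of the 2 in 11, and the median distances were 265 bp for it and 239 bp for its partner. At the 23 members with 1 ribosomal protein gene in the nearest pair, that gene was the nearer in 8, at a median of 295 bp against 195 bp for its partner. The neighbour was thus the nearer gene somewhat more often, a split that was not tested. Pairs with 2 summits enter these counts once per summit.

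Sequence within 50 bp of the summit was rich in G and C. The median was 47.52% G + C at members, 35.6% in windows of the same length 300 bp to either side, 44.6% at single-gene promoter peaks, 42.6% at peaks with no gene in reach and 33.7% at the middle of all neighbouring divergent gaps. The summits of members held 7.02 CpG dinucleotides per window on average, against 3.74 and 3.70 in the flanks. In 51-bp windows, members had 49.1% G + C at the summit and 31.5% and 31.7% at 150 bp to either side. For single-gene promoter peaks the values were 46.1%, 35.3% and 34.8%, a lower crest with shallower troughs. Among members, the strongest group by signal had a median of 50.5% and the others 45.5%.

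**Figure D5:**
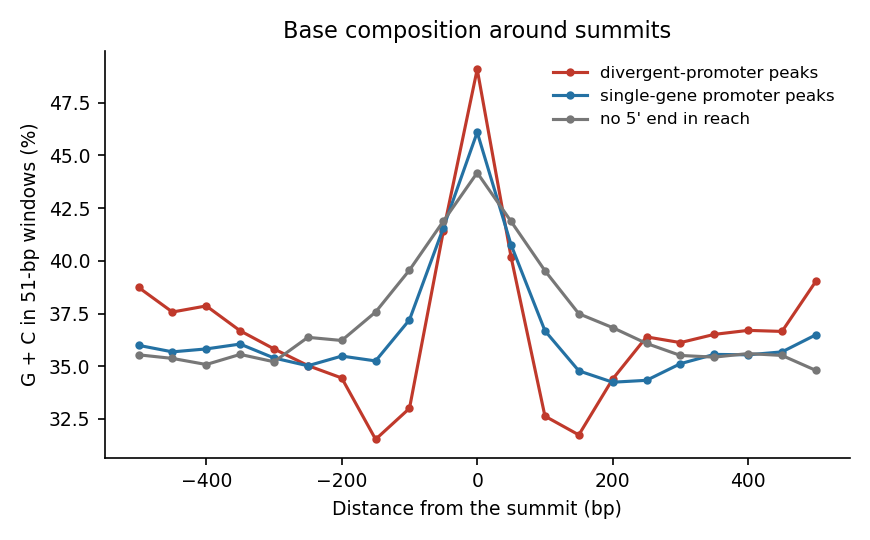
Percentage of G and C in 51-bp windows against distance from the summit in bp (the axis of percentages does not start at 0), for the 328 divergent-promoter peaks (red), 819 single-gene promoter peaks (blue) and 965 peaks with no protein-coding 5′ end in reach (grey). Divergent-promoter peaks have the highest value at the summit (49.1%) and the lowest at 150 bp to either side (31.5% and 31.7%).

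The CREB-type core TGACGT was found in few members. On either strand it lay within 50 bp of 27 summits (8.23%, 5.50 to 11.7), against 3.05% and 3.35% of the flanks, 10.5% (8.49 to 12.8) of single-gene promoter peaks, 8.30% of all nuclear peaks, 3.36% of gap middles and 3.31% of windows upstream of every protein-coding 5′ end, centred at the median distance of the single-gene summits. The longer TGACGTGG was found at 2 members (0.610%) and 18 single-gene promoter peaks (2.198%), and the palindrome TGACGTCA at 5 members (1.52%). Both longer words contain the core. By signal, members with the core ran from pdi-1/C14B1.2 (2838) and srh-70/ceh-99 (2164) through Y54G2A.28/vrp-1 (594.3) and rab-1/C39F7.5 (299.3) down to ZC204.14/duxl-1 (80.12). A match is a run of letters and not a shown binding site.

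TGCAGT, seen in capitals in the 4 strongest sequences above, lay within 50 bp of 31 members (9.45%, 6.51 to 13.1). It was found in 2.13% and 3.35% of the flanks, 6.59% (4.99 to 8.52) of single-gene promoter peaks and 3.40% of windows upstream of all 5′ ends. It was present at 8 of the 20 strongest members (40%, 19.1 to 63.9), 10% of the next 80 and 6.58% of the other 228, a split by rank made after the values were seen. In single-gene promoter peaks it was present at 20% of the strongest 20, 13.75% of the next 80 and 5.42% of the others, and in peaks with no gene in reach at 20% of the strongest 20 and 5.29% of the others. The 8 were trap-2/ile-2, sec-61.B/trap-3, imp-2/enpl-1, pdi-1/C14B1.2, ccf-1/trap-4, F10G7.9/tsn-1, rpl-1/Y71F9AL.9 and dnj-29/ndua-2. At members with a secretory gene, TGCAGT was found in 9 of 29 (31.0%, 15.3 to 50.8) and TGACGT in 3 of 29 (10.3%, 2.19 to 27.3). At single-gene peaks with a secretory gene, TGCAGT was found in 5 of 31 (16.1%, 5.45 to 33.7) and TGACGT in 12 of 31 (38.7%, 21.9 to 57.8). The intervals overlap between the 2 kinds of peak for both words, and for TGACGT only at their edges. Overlap of intervals is not a test of a difference, and neither difference was tested. A single member, pdi-1/C14B1.2, held both words.

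Other words of the set differed in direction. CTGCGTCTC was found at 17 members (5.18%, 3.05 to 8.17), against 0.610% and 0.305% of the flanks and 6.96% of single-gene promoter peaks. The E-box CACGTG was found at 5.79% of members (3.52 to 8.90), 7.57% of single-gene peaks and 11.9% (9.94 to 14.1) of peaks with no gene in reach. GATAAG, the letters read by GATA factors of the worm intestine, was found at 6.10% of members (3.76 to 9.26), 11.97% (9.82 to 14.4) of single-gene peaks and 15.5% (13.3 to 18.0) of peaks with no gene. TTTCAG, the letters of the worm splice acceptor, was found at 9.15% of member summits and in 25.6% and 29.9% of the flanks, and TATAAA at 4.57% against 13.7% and 12.5%. The flanks are poorer in G and C than the summits, and the part of base composition in these differences was not tested.

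The limits of the rule passed through a continuous range of peaks. Just outside the upstream limit were srbc-79/B0250.5 (1001 bp from srbc-79; signal 197.5), efl-1/fbxa-90 (1003 bp; 93.05) and gbf-1/immp-1 (1015 bp; 195.3). Just inside it were Y57A10A.13/Y57A10A.14 (993 bp; 133.3), R107.5/cls-2 (973 bp) and srh-70/ceh-99 (965 bp). On the downstream side, T27E9.2/ant-1.1 (178 bp inside the ant-1.1 gene; 97.05) was kept, while ZC518.8/ccr-4 (207 bp; 79.05) and spd-5/npp-6 (220 bp; 108.8) were not. The tRNA limit removed 6 peaks with a gene on each strand, all within 54 bp of a tRNA gene and with signals up to 229.7 at sec-15/C28G1.2. The member nearest to a tRNA gene, at Y38E10A.22/Y38E10A.24, was 234 bp away. The weakest member, ZK512.2/ZK512.4, had a signal of 78.48, and the strongest peak meeting the rule below the reproducible list, at aars-1/rga-1, had 78.05.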

How the data were processed

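LET-607 binding was measured by ChIP-seq in 1 group of 2 biological replicates, and both replicates' labels gave their number. The authors deposited peak lists with a signal value per peak, whose scale is not stated, a −log10 q-value and a summit offset. Relaxed lists were made per replicate and from pooled reads, and a reproducible (IDR) list was derived from them, per the deposited descriptions. Peaks were called against a control alignment, which was not analysed here. For the aligner and the peak caller, names were not given in the sources used here, and read depth is unknown. Lists on ce10 and the q-values, mostly tied, were not used.

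From the ce11 lists, summits were set against Ensembl 115 WBcel235 gene 5′ ends. Peaks were ranked by signal within a list, and a replicate's value is that of the peak overlapping by at least 1 bp (the strongest where several did). A set of 11 words was searched on both strands in RefSeq WBcel235 sequence. Of these, TGACGT was planned as a result and TGCAGT was not. The genes named are those of the 20 strongest members, up to 4 of each of 15 role lists by signal, secretory pairs, peaks at the limits of the rule and members with TGACGTGG. The 2 members with TGACGTCA whose sequences are shown, the pairs with 2 summits, the members of unequal rank and the weakest member with TGACGT were added after their values were seen, as were other genes of the secretory lists. The members and lists were chosen with earlier results of these data known. Alternatives were other windows, each replicate left out, a stricter threshold, merged summits, RefSeq 5′ ends and other overlaps. The peak assignment, the word search and the finding of divergent pairs were tested on made-up data. Python 3.11.15, numpy 2.4.6, scipy 1.17.1 and matplotlib 3.10.9 were used.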

Additional observations from a re-analysis of the deposited data

How the results depend on the processing

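Of 66 recomputed values of the main quantities, 56 stayed inside a band around the value reported, and the 10 others did not. The band was wide for counts, from 218.7 to 492 for members and from 18.67 to 42 for secretory genes at members. For the median gap it ran from 472 to 559 bp, and for a share it was the exact interval of the share reported. Why the 10 values left their bands was not tested. A promoter window of 500 bp gave 233 members, which is inside the band for members but well below the 328 reported. Its median gap of 406 bp lay outside the band for the gap. A window of 2000 bp gave 498 members, a median gap of 779 bp and 43 secretory genes at members. The stronger part of the list, cut at its median, gave 186 members and peaks at 8.12% of the genes whose window overlaps an opposite-strand window. TGACGT lay within 25 bp of 4.27% of member summits and within 100 bp of 13.4%. Matching replicates by summits within 100 bp left 98.5% of members seen in both, and requiring each peak to cover 50% of the other left 82.3%. With the replicate peak of nearest summit in place of the strongest, chosen after seeing the data, the median distance between replicate summits was again 22 bp, the nearer gene was the same in 291 members, and 75% of the members beyond the 100 strongest had ranks within 2-fold. TGCAGT, whose alternatives were chosen after seeing the data, lay within 25 bp of 5.49% and within 100 bp of 15.5%. With a replicate left out there were 305 to 329 members and a median gap of 495 to 509 bp. The share with TGACGT was 7.599% to 8.85%, and 26 to 29 secretory genes lay at members. These settings used a single replicate's relaxed list, cut by signal to about the length of the reproducible list (2349 and 2351 nuclear peaks). That length partly fixes the count of members. No reproducible list was remade, so these values cannot show how far that list depends on either replicate. Merging summits within 100 bp removed none of the 2349 nuclear peaks, so its values, counted among the 56, were the same by construction. No paired analysis was possible because there was 1 group. Unknown depth limits all shares to the peaks that the authors called.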

Other observations

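A count of all 6-letter words, read after the values were seen and not tested, was ordered by the number of members with the word less the larger number in the 2 flanks. GCGCAC came first and lay within 50 bp of 18.0% of member summits and in 0.915% and 1.22% of the flanks. It was found at 9.40% of single-gene promoter peaks and 3.87% of the middles of divergent gaps. CGTGGC was next in this order, with 16.5% of members, 1.83% and 1.52% of the flanks and 9.16% of single-gene peaks. GACGCA was found at 15.9% of members and 14.6% of single-gene peaks. Some words were at least as frequent at member summits but more frequent in the flanks. AAAAAT was found at 33.5% of member summits and in 49.4% and 47.9% of the flanks, and TGAAAA at 18.0% against 35.4% and 34.8%. Members with a ribosomal protein gene in reach held 8.81 CpG dinucleotides per window on average, those with a secretory gene 7.79 and all members 7.02.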
